A study of Drosophila melanogaster with 2 samples.

Results

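Translation factors are the proteins that load the ribosome onto a messenger RNA, move it along and release it at the stop codon. The genes described here are the protein-coding genes of the fly annotation (Ensembl, dm6 coordinates) whose symbol begins with eIF, eEF or eRF, for initiation, elongation and release factors. They number 54 of 13968 protein-coding genes. What was measured at them is the chromatin binding of Ssrp, a subunit of the histone chaperone FACT, by chromatin immunoprecipitation and sequencing (ChIP-seq). The samples were 2 biological replicates of whole Drosophila melanogaster embryos, male and female mixed and 0 to 16 h old, from a transgenic line that stably expresses Ssrp with green fluorescent protein (eGFP) at its C-terminal end. Both carried the same fusion and were precipitated with an antibody against GFP, so they form 1 group, and no untagged control was analysed here. Whole embryos mix all cell types and many stages, and peaks cannot be traced to any of them.

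FACT loosens and rebuilds nucleosomes where polymerases pass, and genes for the translation machinery are among the most widely transcribed in dividing embryonic cells. Initiation starts with the small ribosomal subunit, which carries eIF3 as a scaffold and receives the initiator tRNA from eIF2. The eIF4 factors recognise and unwind the capped 5′ end of the message, and eIF1, eIF1A, eIF5 and eIF5B control start codon choice and the joining of the large subunit. The elongation factors eEF1 and eEF2 then deliver aminoacyl-tRNAs and move the ribosome, and eRF1 with eRF3 ends synthesis at stop codons.

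The authors deposited a list of 30000 peaks for each replicate, a pooled list of 30000, and a list of 5445 peaks that passed the irreproducible discovery rate (IDR), a criterion that asks whether replicates rank peaks alike. The IDR peaks were all found, with the same position and signal, among the 5445 strongest of the pooled list. The list can thus hold single peaks that the replicates rank differently. The signal of a peak is the caller's value as the authors deposited it. Its scale differs between lists, so signals are compared only within a list, and ranks count from the strongest peak. Read depth is unknown. A gene is called bound here when an IDR summit, the highest point of a peak, lay within 500 bp of any of its transcription start sites (TSSs). With no comparison group, no test was run, and counts of called genes are set beside the share of all protein-coding genes.

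Of the 54 translation factor genes, 15 were bound, or 27.8%, where 19.3% of all protein-coding genes were. The strongest 5445 peaks of each replicate taken alone gave 14 ± 1.41 bound genes (SD, n = 2), 15 in replicate 1 and 13 in replicate 2. The genes were not all the same. Replicate 1 kept 14 of the 15, with eIF4E1 in place of eIF5, and replicate 2 lacked eIF3a and eIF4A. The share above that of all genes therefore rests on a few genes, and the replicate lists are not fully separate, since each also used a further alignment common to both. With summits elsewhere in the gene counted too, eIF4G2 joined and the IDR list marked 16 genes (29.6%, against 24.9% of all protein-coding genes). The bound genes had a median IDR signal of 476 (quartiles 205 and 626), and all 2694 bound protein-coding genes had a median of 355 (quartiles 236 and 653). Those spreads overlap widely.

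Below the IDR threshold, most of the family had some peak. The pooled list had a summit within 500 bp of a TSS for 34 of the 54 genes (63.0%, against 43.4% of protein-coding genes), replicate 1 for 33 (61.1%, against 44.1%) and replicate 2 for 30 (55.6%, against 42.8%). With summits anywhere in the gene, the counts were 38 in the pooled list (70.4%, against 54.6%), 39 in replicate 1 (72.2%, against 55.4%) and 37 in replicate 2 (68.5%, against 55.7%). No list had a summit at 13 genes, or 24.1%, where 35.9% of all protein-coding genes had none. These weaker peaks need not all be binding sites.

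**Figure D1:**
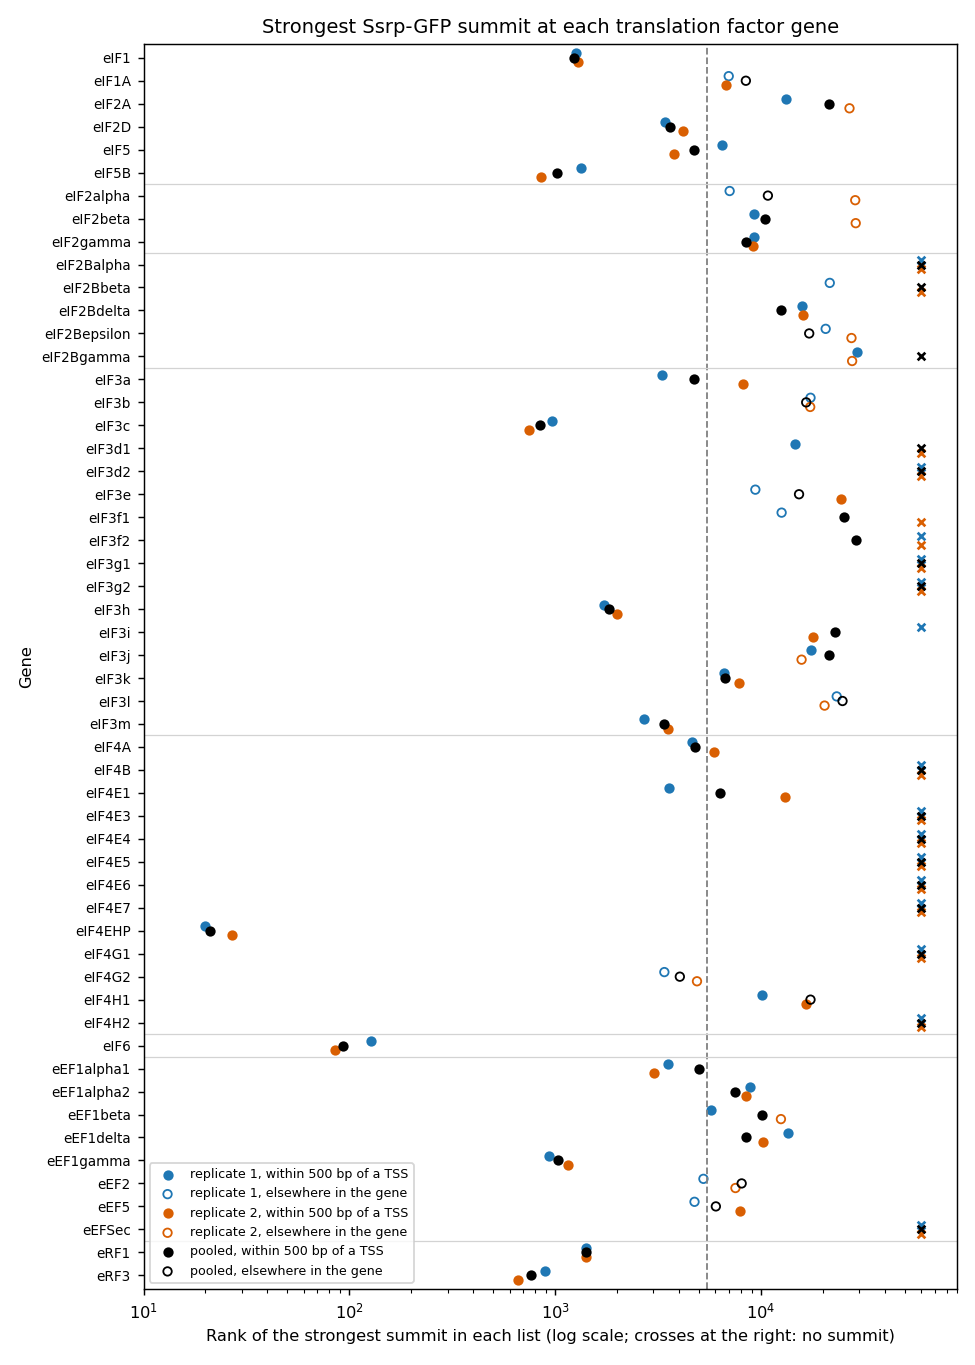
Rank of the strongest summit at each of the 54 genes (log axis, strongest at the left) in replicate 1, replicate 2 and the pooled list, with genes grouped by role. Filled points lie within 500 bp of a TSS, open points elsewhere in the gene, crosses mark lists with no summit, and the dashed line is the 5445th pooled peak, where the IDR list ends. eIF4EHP and eIF6 stand apart at the left, and the right-hand crosses hold eIF4B, eIF4G1 and eIF4E3 to eIF4E7.

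The strongest site by far was the promoter of eIF4EHP, a cap-binding protein that represses translation and in the fly embryo works with Bicoid on caudal mRNA. Its peak (FBgn0053100; chr3R:24108983-24109398, dm6) had a signal of 2968 and rank 21 in the IDR list. Replicate 1 gave a signal of 1445 and rank 20, and replicate 2 a signal of 1522 and rank 27. The summit lay outside the gene, at -239 bp from its TSS (negative is upstream), but nearer still to CG18428 on the other strand, at -137 bp from that TSS. Both genes share the stretch of 376 bp between their start sites, and the peak cannot be given to either alone.

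Sequence at this summit was poor in G and C, as at IDR summits near protein-coding TSSs in general, whose GC content averaged 30.1%. Members averaged 37.4%, and only eIF4EHP, eRF3 and eIF5 lay below 30.1%. Printed here are those 3 windows with those of eRF1 and eIF2D, from 50 bases before the summit to 50 after it, read in the direction of the member and taken from the RefSeq assembly of release 6 (dm6). Runs of 8 or more A or T are in capitals. Their windows overlap no annotated exon, and they were chosen from the lower GC contents among the members. Such a run was present at 13 of the 15 member summits (86.7%), at 84.3% of all IDR summits and at 49.4% of positions 600 bp away. The windows are chr3R:24109149-24109249 (minus strand) for eIF4EHP, chr2L:12434208-12434308 (plus) for eRF3, chr3L:20348189-20348289 (plus) for eRF1, chr3R:29151890-29151990 (minus) for eIF2D and chrX:15992121-15992221 (minus) for eIF5.
eIF4EHP: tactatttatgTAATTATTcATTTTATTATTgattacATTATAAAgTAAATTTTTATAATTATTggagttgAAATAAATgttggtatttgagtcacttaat
eRF3: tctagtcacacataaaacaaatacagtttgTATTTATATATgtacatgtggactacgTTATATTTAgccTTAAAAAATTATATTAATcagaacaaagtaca
eRF1: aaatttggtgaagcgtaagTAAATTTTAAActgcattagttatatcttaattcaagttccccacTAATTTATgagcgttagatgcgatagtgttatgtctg
eIF2D: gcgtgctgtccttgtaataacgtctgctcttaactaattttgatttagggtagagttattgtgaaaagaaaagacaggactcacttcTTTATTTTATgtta
eIF5: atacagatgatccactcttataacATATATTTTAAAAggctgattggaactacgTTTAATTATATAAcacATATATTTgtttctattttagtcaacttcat

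The longest unbroken run of A and T had 18 bases at eIF4EHP and at eRF3, 13 at eIF5, 11 at eRF1 and 10 at eIF2D. The GC content of these windows was 16.8%, 24.8%, 24.8%, 31.7% and 33.7% in that order. The strongest peak thus had the lowest GC content of the 15, while eIF5, with 24.8%, was among the weakest.

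eIF6, which binds the large ribosomal subunit, helps to build it and keeps it from joining early, came next. Its promoter peak (FBgn0034915; chr2R:23850224-23850569) had a signal of 1832 and rank 93, with ranks of 127 in replicate 1 and 85 in replicate 2. Its summit stood at -112 bp, 83 bp inside the antisense RNA gene asRNA:CR45928 as measured from the start of that RNA, and within the span of ytr, which overlaps eIF6. After eIF6 the signals dropped to 709 and below.

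The factors of start codon choice and subunit joining were grouped here with eIF2A and eIF2D. Of these 6 genes, 4 were bound (against 19.3% of all protein-coding genes), eIF5B, eIF1, eIF2D and eIF5. As in the other role groups, so few genes give only a rough share. The eIF5B GTPase, which brings in the large subunit, had a promoter peak on chr3L:3460685-3460911 whose IDR signal was 588, with 237 in replicate 1 (rank 1333) and 351 in replicate 2 (rank 852). Its summit lay between the start sites of the gene, 202 bp downstream of the outer and 172 bp upstream of the inner one, in the annotated 5′ UTR. Replicates placed it 3 bp apart. eIF1, which keeps the scanning subunit from starting at wrong codons, had a signal of 523 (rank 1232), with ranks of 1264 and 1287 in the replicates. Its summit, at -306 bp, was at -75 bp from the TSS of RpL28, a ribosomal protein gene that is transcribed the other way. So this peak counts for a translation factor and for a ribosomal protein, and lies closer to the latter.

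eIF2D, which can bring tRNA to the ribosome without eIF2, had a signal of 230 (rank 3604), and its summits lay 200 bp upstream in replicate 1 and 122 bp in replicate 2. The peak of eIF5, the protein that triggers GTP hydrolysis by eIF2, was near the end of the list, with a signal of 180 and rank 4743. It ranked 6444 in replicate 1 and 3759 in replicate 2, and its replicate summits were 157 bp apart, the widest gap among the 15 sites. The same summit lay at -297 bp from exd, a homeodomain gene for a Hox cofactor, and CG46312 starts at the TSS of eIF5. eIF1A and eIF2A were not bound. For eIF1A the strongest promoter summit ranked 8774 in the pooled list, 16137 in replicate 1 and 6769 in replicate 2, and for eIF2A the pooled rank was 21374.

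None of the 3 eIF2 subunit genes and none of the 5 eIF2B genes was bound, eIF2B being the complex that recharges eIF2 with GTP. With 19.3% of all protein-coding genes bound, counts of 0 in groups of 3 and 5 do not set these genes apart. eIF2gamma came nearest, with a promoter summit of signal 107 and rank 8449 in the pooled list and ranks of 9286 and 9175 in the replicates. For eIF2beta the pooled rank was 10502, and replicate 2 had no promoter summit. eIF2alpha had no summit near its TSS in any list, and its strongest pooled summit, of rank 10797, lay 1324 bp downstream. Of the eIF2B genes, eIF2Bdelta had promoter summits in all 3 longer lists (rank 12444 pooled, 15885 and 15934 in the replicates), eIF2Bepsilon had its only promoter summit in the pooled list (rank 21166), eIF2Bgamma only in replicate 1 (rank 29282), eIF2Bbeta had none, and eIF2Balpha had no summit of any kind. Counted within 1000 bp of a TSS, eIF2Bbeta and eIF2Bdelta would be called bound.

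For eIF3, the large scaffold of the small subunit, 4 of 16 genes were bound, near the 19.3% of all protein-coding genes. eIF3c, a core subunit, had the highest signal of them at 664 (FBgn0034258; chr2R:17665492-17665748, rank 844), with 295 in replicate 1 and 379 in replicate 2, and the summit 22 bp upstream of the TSS. eIF3h had 390 (rank 1816), with its summit inside an intron, 322 bp downstream of the inner TSS. eIF3m had 244 (rank 3379), with the summit 4 bp upstream of its outer TSS. eIF3a, the largest core subunit, had 180 (rank 4744) and differed between replicates, with rank 3287 in replicate 1 and 8216 in replicate 2. The summits of eIF3h, eIF3m and eIF3a also lay at -385, -222 and -58 bp from senju, CG8323 and CG1074, on the other strand. The 12 others were not bound. eIF3k came nearest, at rank 6703 in the pooled list and 6618 and 7776 in the replicates.

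**Figure D2:**
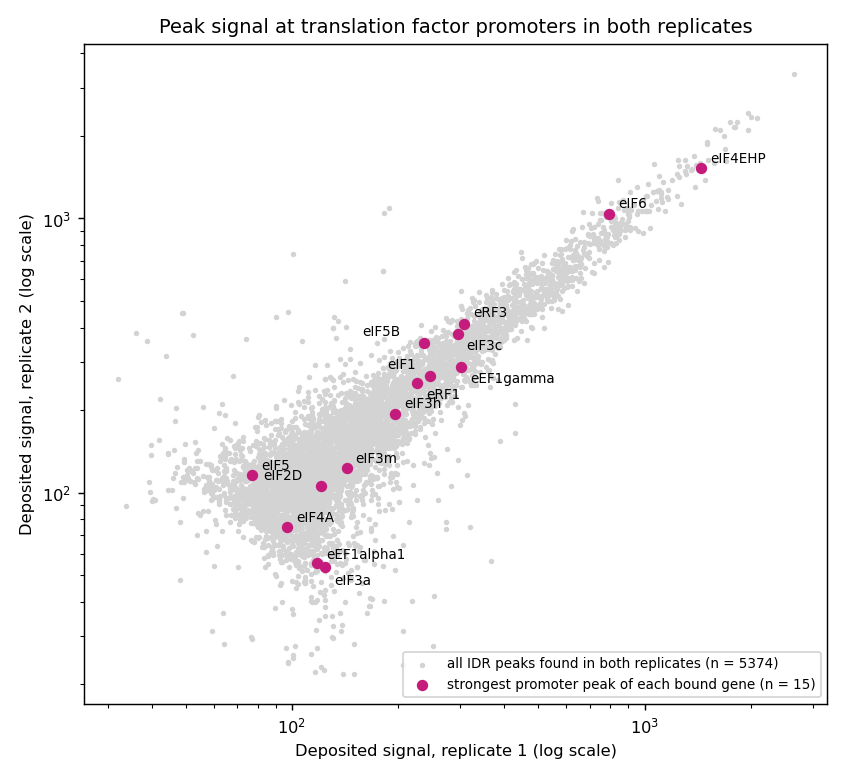
Deposited signal in replicate 1 against replicate 2 (log axes) for all IDR peaks that overlap a peak in both (grey) and for the strongest promoter peak of each of the 15 bound genes. eIF4EHP (1445 and 1522) and eIF6 (794 and 1042) are high in both, and eIF3a (124 and 53.8) and eEF1alpha1 (118 and 55.4) lie lower in replicate 2 relative to the other peaks.

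Of the 13 eIF4 genes, eIF4EHP and eIF4A were bound, also near the 19.3% of all protein-coding genes. eIF4A, the RNA helicase of the cap complex, had a signal of 179 (rank 4767; ranks 4626 and 5894 in the replicates), 40 bp upstream of an internal TSS and within an intron of the longer transcripts, 559 bp into the gene. eIF4E1, which encodes the main cap-binding protein, was outside the IDR list, at rank 6343 in the pooled list. Its replicates were far apart, with a promoter summit of rank 3569 in replicate 1 and 13115 in replicate 2. The other eIF4E genes, eIF4E3, which acts in the testis, eIF4E4, eIF4E5, eIF4E6 and eIF4E7, had no summit in any of the 4 lists. eIF4H1, whose protein aids the helicase, had a promoter summit of rank 17938 in the pooled list, and its paralog eIF4H2 had none.

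Paralogs of other subunits differed in some pairs and not in others. eIF3d1 had a promoter summit in replicate 1 only (rank 14642) and eIF3d2 none in any list. eIF3f1 had promoter summits in the pooled list (rank 25394) and in replicate 1 (rank 23650), and eIF3f2 in the pooled list alone (rank 28857). Neither eIF3g1 nor eIF3g2 had a summit. The eIF4 scaffold gene eIF4G1, on chromosome 4, had none, and eIF4G2, which is needed in the male germline, had an IDR peak in an intron (chr3R:23817520-23817915, signal 208, rank 4032; ranks 3391 and 4885 in the replicates), 1101 bp from a TSS, where CG34355 and CG33111 overlap it. eIF4B, another helicase cofactor, had no summit either. Around the TSSs of eIF4B and eIF3g1, 53.8% and 63.1% of the 32-base words occur once in the chromosomes, and 100% around those of eIF4G1 and of the 5 eIF4E genes without a summit. The part of repeated sequence in these blanks was not tested. eEFSec, for selenocysteine, and eIF2Balpha complete the 13 genes without a summit.

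Among the 8 elongation factor genes, eEF1gamma and eEF1alpha1 were bound, again near the 19.3% of all protein-coding genes. eEF1gamma, a subunit of the complex that exchanges GDP for GTP on eEF1alpha, had a signal of 586 (FBgn0029176; chr3R:29219970-29220242, rank 1034), 302 in replicate 1 and 287 in replicate 2, with its summit 46 bp upstream. eEF1alpha1 encodes the GTPase that carries aminoacyl-tRNAs to the ribosome, one of the most abundant proteins of the cell. Its peak (chr2R:11892334-11892729) was the weakest of the 15 at a signal of 170 and rank 4987, and lay in an intron, 410 bp downstream of an internal TSS. The pooled list had 8 summits in or near eEF1alpha1, with signals of 170 and below. In replicate 2 its strongest summit was another one, 86 bp upstream of a TSS, at rank 3036.

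The remaining elongation genes fell below the IDR list. eEF1alpha2 had ranks of 7472 in the pooled list and 8856 and 8426 in the replicates, at -195 bp from its TSS. At eEF2, whose product moves the ribosome by a codon, the pooled list had 6 summits, of which the strongest ranked 8051 and lay 1160 bp downstream of the TSS. The strongest pooled summit of eEF5, the hypusine-bearing factor long known as eIF5A, ranked 6033 and lay 645 bp downstream. For eEF1delta and eEF1beta the strongest promoter summits ranked 8496 and 10075 in the pooled list. By pooled rank, eEF1alpha1 and eEF2 thus stood near or below the end of the IDR list, and eIF4EHP and eIF6 near its top. In replicates 1 and 2, the strongest summits ranked 3526 and 3036 at eEF1alpha1, 5250 and 7510 at eEF2, and 4751 and 7937 at eEF5.

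Both release factor genes were bound, where 19.3% of all protein-coding genes were. eRF3, the GTPase partner, had a signal of 709 (FBgn0020443; chr2L:12434044-12434466, rank 762), 308 in replicate 1 and 413 in replicate 2. The summit lay 194 bp upstream and within the span of SC35, a splicing factor gene on the other strand, at -220 bp from the nearest of its start sites. eRF1, which reads the stop codon, had a signal of 476 (FBgn0036974; chr3L:20348159-20348334, rank 1415), with ranks of 1412 and 1405 in the replicates. The summit lay 116 bp upstream, and at -297 bp from Rbbp5, a gene for a histone methyltransferase subunit. Around the end of the IDR list, the members just inside were eIF5, eIF3a, eIF4A and eEF1alpha1 (signals 180, 180, 179 and 170). Those just outside, by the strongest pooled summit anywhere in the gene, were eEF5, eIF4E1 and eIF3k (144, 137 and 130). The summit of eEF5 was not at its promoter, where the strongest pooled summit had a signal of 93.2 and rank 10209.

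**Figure D3:**
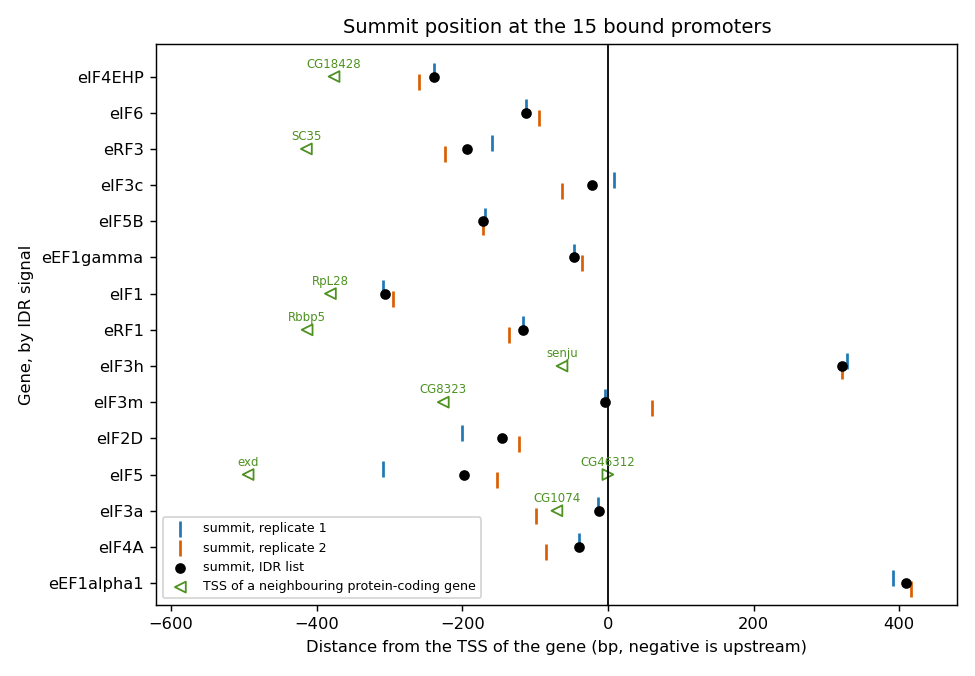
Position of the strongest promoter summit at each of the 15 bound genes relative to the nearest TSS of the gene (bp, negative upstream), in the IDR list (points) and in each replicate (bars). Green triangles are start sites of neighbouring protein-coding genes within 500 bp of the summit and point in their direction of transcription. Summits lie upstream in 13 of 15, and those of eIF3h and eEF1alpha1 lie at 322 and 410 bp.

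The summits lay mostly upstream of the start sites and outside the member's own gene. Relative to the nearest TSS of its own gene, 13 of 15 summits were upstream (86.7%, against 89.9% of bound protein-coding genes), with a median of -112 bp (quartiles -183 and -17). Bound protein-coding genes as a whole had a median of -162 bp (quartiles -241 and -101.25). The median was -46 bp in replicate 1 and -122 bp in replicate 2, or -84.0 ± 53.7 bp (SD, n = 2), a spread as wide as the difference. Outside the member's own gene lay 11 summits, of which those of eIF6 and eRF3 were inside other genes. Within the member's own gene, 3 were in introns and 1 was in a 5′ UTR. At 10 of the 15 genes (66.7%, against 61.0% of bound protein-coding genes) another protein-coding gene started on the opposite strand within 1000 bp upstream. At 3 genes, eIF4EHP, eIF6 and eIF1, the summit was nearer to a TSS of another gene (20.0%, against 30.1%).

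The IDR list holds the 5445 strongest peaks of the pooled list, which draws on both replicates. Agreement between them at these sites was therefore not independent of that choice and is given as a description. Replicate peaks overlapped by at least 50% of each at 14 of 15 sites (93.3%, against 79.3% of all IDR peaks), the exception being eRF1, whose summits were 20 bp apart. The median gap between replicate summits was 25 bp, against 22 bp for all IDR peaks. Both replicate peaks ranked within the strongest 5445 at 11 of 15 sites (73.3%, against 78.2%). The 4 others were eIF5, missing in replicate 1, and eIF3a, eIF4A and the shown peak of eEF1alpha1, missing in replicate 2.

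Inside the longest genes further IDR summits were found. eIF5B spans 32320 bp and held 7 IDR summits in introns, with signals from 190 to 529, the strongest 27762 bp downstream of its inner TSS. eIF4EHP spans 45884 bp and held 3, with signals of 461, 202 and 189 at 9785, 9186 and 2517 bp. Of 504 protein-coding genes of 25 to 50 kb, these included, 9 (1.79%) had 7 or more such summits and 96 (19.0%) had 3 or more, and the median was 0. The pooled list added weaker summits along both genes, 21 in all outside the promoter of eIF5B and 22 outside that of eIF4EHP. Apart from these 2 genes and eIF4G2, no member had an IDR summit away from its start sites. Introns here are those of the member itself, and other genes that may overlap the internal summits of eIF5B and eIF4EHP are not given. The bound members were longer, with a median of 4098 bp against 1944 bp for the 39 others, as bound protein-coding genes were longer than all (3205.5 against 2164.5 bp).

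**Figure D4:**
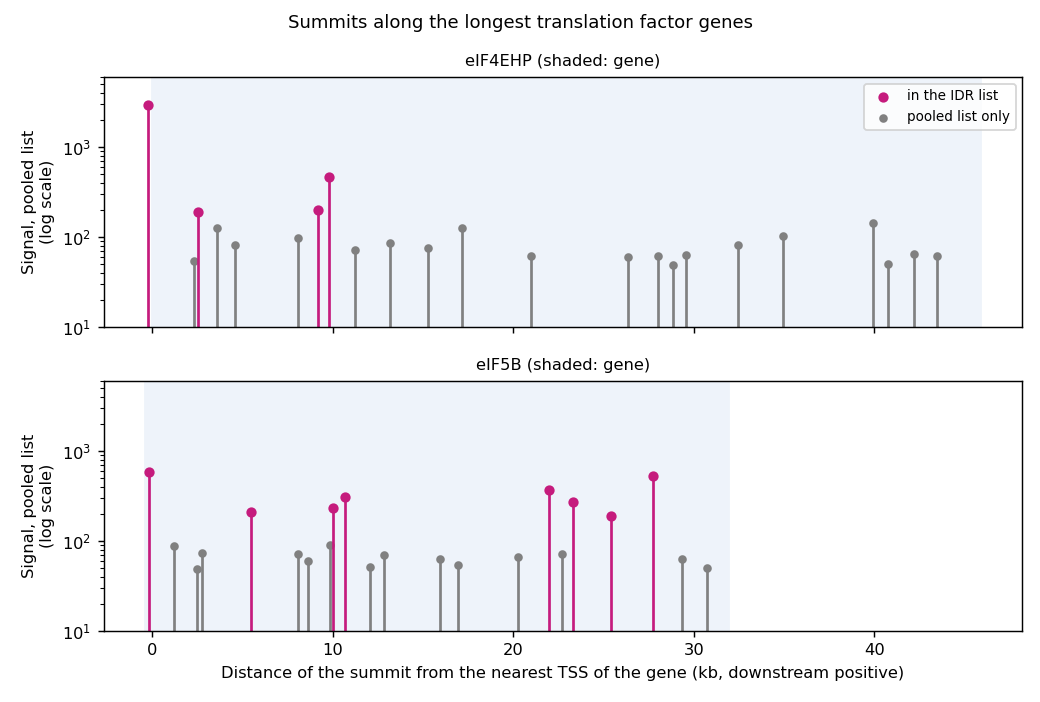
Signal of the pooled peaks (log axis) along eIF4EHP and eIF5B against the distance of the summit from the nearest TSS (kb). Peaks of the IDR list are in colour and the other pooled peaks in grey. At eIF4EHP the promoter peak (2968) far exceeds the strongest internal one (461), and at eIF5B the promoter (588) and the summit at 27762 bp (529) are close.

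Summit sequences varied widely, from the AT-rich windows of eIF4EHP and eRF3 shown above to others richer in GC. Within 50 bp of the summit, GC content averaged 37.4% ± 10.6 (SD, 15 sites) at the bound members and 30.1% ± 8.71 at the 2057 IDR summits near protein-coding TSSs. The values ran from 16.8% at eIF4EHP to 54.5% at eIF3a. Compared with sequence 600 bp to either side, 10 of 15 sites were poorer in GC at the summit, against 89.9% of the promoter summits, and the exceptions were eIF5B, eIF1, eIF3a, eIF4A and eEF1alpha1. Above 40% GC lay 6 of the 15, these 5 and eEF1gamma, and 254 of the 2057 promoter summits (12.3%). In the strongest peaks of the replicates the mean was 38.8% and 33.7%, or 36.3% ± 3.59 (SD, n = 2). The 11 IDR summits inside eIF5B, eIF4EHP and eIF4G2 averaged 28.9% ± 7.37, and the 121 weaker pooled summits at members 43.9% ± 12.0, close to their flanks at 44.5%.

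**Figure D5:**
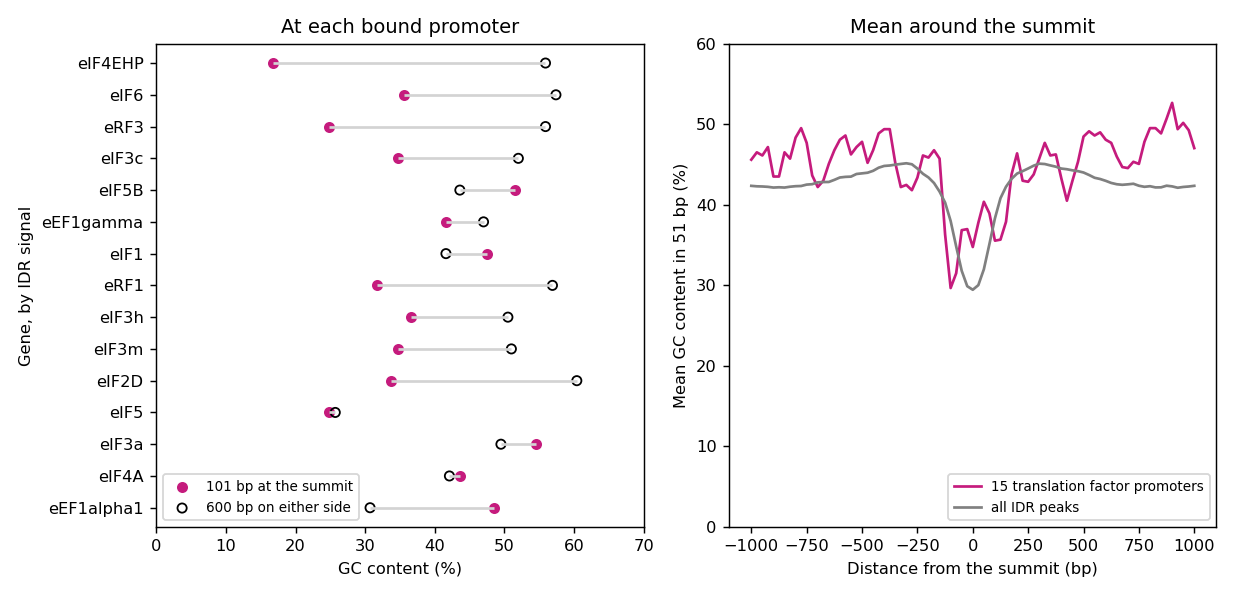
Left, GC content (%) within 50 bp of the summit (filled) and 600 bp to either side (open) for each bound promoter, strongest at the top. Right, mean GC content in 51 bp windows around the summits of the 15 promoters and of all IDR peaks. At eIF4EHP it falls from 55.9% to 16.8%, and at eEF1alpha1 it is higher at the summit (48.5%) than beside it (30.7%).

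The sequence TATCGATA is the DNA replication-related element (DRE) of many genes active in dividing cells, recognised by the factor Dref. Within 100 bp of the TSS, TATCGATA was present at 12 of the 54 genes (22.2%), where 7.67% of all protein-coding genes had it. It was at 4 of the 15 bound genes (26.7%, against 9.8% of bound protein-coding genes) and at 8 of the 39 others (20.5%). Within 50 bp of the summit it was found at 3 of 15 members, eEF1gamma, eIF3a and eIF1 (20.0%), against 36 of the 2057 promoter summits (1.75%) and 42 of all 5445 IDR summits (0.771%). All 3 were among the 6 summits above 40% GC, of which eIF5B, eIF4A and eEF1alpha1 lacked it. The sites are shown with 10 bases on either side and the element in capitals, read in the direction of the member, on chr3R:29220131-29220138 (plus) for eEF1gamma, chr3R:4433926-4433933 (minus) for eIF3a and chr3L:3223045-3223052 (plus) for eIF1.
eEF1gamma: gcctaggaaaTATCGATAtatcgccgta
eIF3a: cggcctgaacTATCGATAacgcagccag
eIF1: gcagggcaacTATCGATAagcatttcgt

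The element was centred 8 bp from the summit at eEF1gamma, 22 bp at eIF3a and 13 bp at eIF1. At eIF3a it also lies upstream of CG1074, and at eIF1 upstream of RpL28. The copy at eIF1 lies beyond 100 bp of its TSS, so the 4 bound genes counted above are eEF1gamma, eIF3a, eRF1 and eIF6. At eRF1 the element was 94 bp from the summit, from -25 to -18 bp of the TSS, and at eIF6 it was 105 bp from the summit. GC content at the summit was 31.7% at eRF1 and 35.6% at eIF6. Genes without an IDR peak carried it too, among them eEF1delta, eIF2alpha, eIF3f1, eIF3l, eIF4B, eIF4E6 and eIF2Bbeta with 1 copy each within 100 bp of the TSS. The copies of eIF2alpha (chrX:16446999-16447006, minus strand) and eEF1delta (chr2L:10232478-10232485, plus strand) are shown because they hold the same element at unbound promoters.
eIF2alpha, -13: cgcaattaaaTATCGATAacaccactgt
eEF1delta, -29: atggcgtagaTATCGATAtacctgcatt

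Other promoter sequences were sought on both strands in the same windows. TATCGATA and CACGTG read the same on both strands, and none of the sequences contains another. GGTCACAC, the core of the fly promoter element called Motif 1, was at 8 of 54 members (14.8%, against 6.56% of all protein-coding genes), CACGTG, an E-box, at 4 (7.41%, against 2.9%), GAGAG, read by the GAGA factor, at 5 (9.26%, against 22.9%) and TATAAA at 15 (27.8%, against 29.1%). CTTTT or CTTTC, the TCT initiator core of ribosomal protein genes, was sought on the sense strand, its C within 10 bp of the TSS. It was at 6 of 54 (11.1%, against 6.74%). None of the 15 bound members had it, where 8.35% of bound protein-coding genes did. A match is a description of the letters, and counts this small carry wide error.

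Other genes of translation are set here beside the 19.3% of all protein-coding genes that were bound. Cytosolic aminoacyl-tRNA synthetases, which charge tRNAs, had 11 of 20 bound (55.0%), led by IleRS, SerRS and ThrRS at signals of 1122, 947 and 785, with 9 bound in the strongest peaks of replicate 1 and 12 in those of replicate 2. Cytosolic ribosomal proteins had 52 of 93 (55.9%; 55 and 49 in the replicates), led by RpL34b, RpS27 and RpL7 at 1028, 951 and 653, so both groups stood higher than the 27.8% of the translation factors. The median signal of the bound genes was lower in both, 313 for the synthetases and 266 for the ribosomal proteins, against 476 for the translation factors. Of genes for ribosome recycling and rescue, 3 of 8 were bound, pelo (370), HBS1 (294) and pix (230). Of regulators and partners of initiation, 2 of 19 were bound, larp (1923, rank 80), which encodes a La-related RNA-binding protein, and MCTS1 (254), and 9 had an IDR summit in the gene or at a TSS (24.9% of all protein-coding genes had one). Of mitochondrial translation factors, 1 of 8 was bound, mEFTu1 at 159, near the end of the list.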

How the data were processed

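Peaks came from ChIP-seq of GFP-tagged Ssrp in 2 embryo samples, and the assembly is dm6 per the labels. The authors deposited a signal, a −log10 of the q-value and a summit for each peak. Per the deposited text, each replicate list derives from that replicate's alignment and 1 further alignment, the pooled list from both, and the IDR list from the other lists. For aligner, peak caller and IDR threshold, no name or value is given in the sources used here. Ranks follow the signal, not the −log10 q that the authors deposited.

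Genes and TSSs came from Ensembl and sequence from RefSeq's release 6. No peak lay beyond a chromosome end. Summits outside their peak (4 in the IDR list, 5 pooled, 3 in replicate 2) were moved to its nearest base. Each gene's strongest summit within 500 bp of any TSS was used. Motifs were sought within 100 bp of 1 TSS per gene, the nearest to a summit or else the most 5′. Gene assignment was tested on simulated data. Python 3.11.15, numpy 2.4.6 and pandas 2.3.3 were used.

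The samples form 1 group, so no test was run. Members, lists and the rule for named genes (every member with an IDR summit, abundant elongation factors and eIF4A, the next members by pooled signal, those without summits, and up to 3 genes a list) were chosen with earlier results of these data known. Of the symbols listed, 2 mitochondrial factors, 2 regulators and 1 quality control gene were not found in the annotation. The sequence of 1 further promoter is not reported here.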

Additional observations from a re-analysis of the deposited data

How the results depend on the processing

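The count of 15 bound genes became 12 within 250 bp of a TSS (14.6% of all protein-coding genes) and 17 within 1000 bp (22.6%), 12 with the nearest TSS only (13.8%) or the most 5′ TSS only (17.0%), and 12 without the genes whose summit lies nearer to another gene (a setting chosen after seeing the data). It was 13 without replicate 1 (19.1%) and 15 without replicate 2 (19.5%), the latter with eIF4E1 in place of eIF5. With other thresholds it was 9 in the strongest 2722 IDR peaks (11.8%), 24 in the strongest 10890 pooled peaks (29.1%) and 34 in the whole pooled list (43.4%), which take fewer or more peaks by construction. With gene bodies counted, 16 became 9 (15.8%) and 38 (54.6%) in the first and last of these, 14 (24.9%) without replicate 1 and 18 (25%) without replicate 2. The median summit position ran from -122 to -46 bp and mean GC content from 33.7% to 38.8% with a replicate left out; the median signal was 531 within 250 bp. The cause of these shifts was not tested. In windows of 50 bp GGTCACAC was at 5 members (9.26%, against 5.47% of all protein-coding genes) and CACGTG at 2 (3.7%, against 2.0%). GAGAG was there at 2 (3.7%, against 11.6%) and TATAAA at 5 (9.26%, against 16.9%). In windows of 200 bp GAGAG was at 14 (25.9%, against 37.9%) and TATAAA at 25 (46.3%, against 48.3%), since wider windows hold more matches. TATCGATA stood at 11 in 50 bp (20.4%, against 5.48%) and at 13 in 200 bp (24.1%, against 8.95%). Sites shared by the replicates were 14 of 15 by 50% overlap, 15 by any overlap and 14 with summits within 100 bp. Of the 5445 IDR peaks, 4318, 5370 and 5076 were shared by these rules in turn. Both replicate peaks ranked within the strongest 5445 at 11 of the 15 sites (73.3%, against 78.2%). No paired analysis was possible because there is 1 group. Read depth is unknown, so whether weak promoters lack peaks for want of reads could not be examined.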
